A study of Mus musculus with 80 samples.

Results

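The fatty acid elongases Elovl1 to Elovl7 catalyse the first and rate-limiting step of fatty acid elongation in the endoplasmic reticulum. They were taken by gene symbol, and all 7 were found among the 32764 gene rows of the counts, which cover 4 tissues and 4 genotypes. An elongase condenses malonyl-CoA with an activated fatty acid, and a reductase, a dehydratase and another reductase then complete a chain that is a pair of carbons longer. The members differ in the chains they accept, so their relative levels bear on which saturated, monounsaturated and polyunsaturated fatty acids a cell makes. Elovl3 is a classical cold-induced gene of brown fat, the tissue that burns lipid for heat, and Elovl6 works directly downstream of fatty acid synthase by turning palmitate into stearate.

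RNA of 4 tissues, namely brown fat (BAT), the inguinal depot of white fat (iWAT), liver and muscle, was compared between homozygous male mice of 4 genotypes on the C57BL/6J background, with 5 libraries per tissue and genotype and 80 in all. By the labels, the genotypes were wildtype (WT), mice without the hormone gene Fgf21 (FGF21 KO), mice without Ucp1, the uncoupling protein of brown fat (UCP1 KO), and mice without both (dKO, written UCP1/FGF12 double KO in the labels). Every group was raised at 30 °C, moved to room temperature at 10 to 12 weeks of age, fed high-fat diet for 3 weeks and killed after 2 to 3 hours without food. The labels do not link the libraries of a mouse across tissues, and p-values describe the spread between libraries that the labels give as separate samples.

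The libraries held 28691377 to 50380696 reads on genes (median 38022853). Levels are given as CPM, counts scaled to library size with TMM factors over all 80 libraries, and a library is named by its genotype and number. Fgf21 had at most 3 counts in every FGF21 KO and dKO library, against 51 to 107 in WT liver. Ucp1 was counted in libraries labelled UCP1 KO too, and in iWAT they had more of it, with 3942 to 20264 counts, than WT, with 109 to 776. In BAT these ranges were 24291 to 60779 and 98548 to 216085. The part of Ucp1 that these reads cover was not analysed here, and UCP1 KO and dKO stand for the labels throughout. The defining markers were found in each tissue, with a summed CPM of at least 2506 for 5 brown adipocyte markers in BAT, 2633 for 5 adipocyte markers in iWAT, 79300 for 5 hepatocyte markers in liver and 165800 for 10 skeletal muscle markers in muscle. Some libraries stood apart by their marker scores, each a mean over the list of log2 values of CPM with 0.1 added. The lymph node score (8 genes) was 5.72 to 6.69 in 9 iWAT libraries (2 WT, 4 FGF21 KO, 1 UCP1 KO and 2 dKO) and at most 1.05 in the others. The skeletal muscle score of WT BAT was 1.16 to 3.22, while BAT of UCP1 KO reached 9.50 and that of dKO 8.57. In tissue RNA, fewer cells of a type and less RNA per cell cannot be told apart.

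All 7 members are protein-coding, and positions are those of GENCODE vM21 on GRCm38, the build of the counts. Among the members for saturated and monounsaturated chains, Elovl1 serves the very long chains of sphingolipids (chromosome 4, 118428093 to 118432953, plus strand), Elovl3 acts in brown fat, liver and skin (chromosome 19, 46131897 to 46135694, plus strand), Elovl6 is the palmitate elongase (chromosome 3, 129532355 to 129638495, plus strand) and Elovl7 takes long saturated chains (chromosome 13, 108214404 to 108285683, plus strand). Elovl5 elongates polyunsaturated chains (chromosome 9, 77917364 to 77984519, plus strand), and Elovl2 works on the longer ones on the way to docosahexaenoic acid (chromosome 13, 41182381 to 41220405, minus strand). Elovl4 makes the extremely long chains of retina, skin and brain (chromosome 9, 83778692 to 83806277, minus strand). Elovl1 overlaps Cdc20 by 53 bases and Elovl3 overlaps Pitx3 by 10 bases on the opposite strand. The libraries kept strand, but the strand setting of the counting is not given in the sources used here, so reads in these overlaps are uncertain.

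RefSeq promoters on GRCm38.p6, from 250 bases before to 50 after a start, were matched for 6 of the 7 members, all but Elovl3. The stretches upstream of Elovl6 and Elovl5 are shown because Elovl6 rose in iWAT (below) while Elovl5, which also is well counted there, did not pass the test. Both are written from 5′ to 3′ on the plus strand and end before the annotated gene. Capitals mark matches on either strand of CACGTG (the E-box), CCAAT (the CCAAT box) and AGGTCA (the nuclear receptor half-site).
Elovl6, chr3:129532136-129532354: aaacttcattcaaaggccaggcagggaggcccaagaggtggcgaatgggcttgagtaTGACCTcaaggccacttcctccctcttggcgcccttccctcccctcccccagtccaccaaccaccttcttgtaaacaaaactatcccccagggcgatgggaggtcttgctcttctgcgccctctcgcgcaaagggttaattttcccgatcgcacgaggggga
Elovl5, chr9:77917115-77917363: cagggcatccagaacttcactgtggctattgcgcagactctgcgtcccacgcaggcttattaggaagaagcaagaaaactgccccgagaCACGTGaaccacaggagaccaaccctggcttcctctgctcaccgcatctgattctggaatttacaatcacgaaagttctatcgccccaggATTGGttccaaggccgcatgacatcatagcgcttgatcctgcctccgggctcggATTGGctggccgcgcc
The Elovl6 promoter held 1 half-site and no E-box or CCAAT box, and that of Elovl5 held 1 E-box, 2 CCAAT boxes and no half-site. Of all 32851 promoters, 16.3% held the half-site, 7.15% the E-box and 37.4% the CCAAT box. TCACNCCAC, the core of the sterol regulatory element, was in 1.24% of all promoters and in none of the members' 8 windows. These matches describe letters only.

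In WT mice most elongases differed in level between tissues, as most genes did. Tissues were compared over the 20 WT libraries with edgeR's quasi-likelihood F test, and a gene was called at a Benjamini-Hochberg adjusted p under 0.01. Elovl4 did not pass the low-count filter there, nor in liver or muscle, so 6 members were tested. Of these, 6 were called between iWAT and liver, where 74.9% of all tested genes were called, 5 between BAT and liver (67.3% of genes), 5 between liver and muscle (73.8%), 5 between BAT and iWAT (60.7%), 4 between BAT and muscle (64.1%) and 4 between iWAT and muscle (74.4%). The members' counts lie near these shares and are no result about the family. Without TMM factors every log2 difference of iWAT against liver moves by 1.06, of iWAT against muscle by 0.96 and of BAT against iWAT by -0.72.

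The polyunsaturated chain elongases were highest in liver. Elovl2 had 1582, 1124, 1252, 1228 and 1410 CPM in the WT liver libraries and 0.0152 to 0.512 CPM in the WT libraries of the other tissues. Liver exceeded muscle by 12.45 ± 0.51 on the log2 scale (SE, adjusted p = 1.35e-14), while muscle and BAT (adjusted p = 0.871) and BAT and iWAT (adjusted p = 0.214) were not called against each other. Elovl5 had 1213 ± 205 CPM in liver (SD, n = 5), 118 ± 5.99 in BAT, 78.2 ± 6.003 in iWAT and 19.95 ± 2.35 in muscle, and each step of that order was called. The step from BAT to iWAT, however (0.60 ± 0.10 on the log2 scale, adjusted p = 4.03e-05), turned to -0.13 (adjusted p = 0.226) without TMM factors.

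Elovl3 and Elovl6 differed in the tissue where they were highest. Elovl3 had 824, 871, 644, 389.9 and 331 CPM in WT liver and 43.9, 63.3, 48.6, 48.6 and 68.4 CPM in WT BAT. In WT iWAT it had 0.389, 0.400, 0.306, 0.579 and 0.243 CPM, from 16 to 43 counts, and in WT muscle 0.0285 to 0.544 CPM. Liver did not overlap with BAT, nor BAT with iWAT, and BAT exceeded iWAT by 7.14 ± 0.42 on the log2 scale (adjusted p = 1.53e-11), while iWAT and muscle were not called against each other (adjusted p = 0.147), though they were without TMM factors (1.80 on the log2 scale, adjusted p = 0.00258). Elovl6 was highest in BAT, with 1149, 1075, 786, 1104 and 988 CPM, followed by liver (193 ± 72.2), iWAT (51.9 ± 20.8) and muscle (6.29 ± 7.58). BAT exceeded liver by 2.39 ± 0.50 on the log2 scale (adjusted p = 0.000250). The later steps were called too, but that of iWAT against liver fell from -1.93 to -0.86 (adjusted p = 0.0934) without TMM factors.

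Elovl1 was counted in every tissue, with 63.6 ± 10.2 CPM in WT liver, 34.6 ± 3.53 in iWAT, 12.7 ± 1.19 in BAT and 8.85 ± 0.970 in muscle. All steps were called, but iWAT against liver (-0.90 ± 0.11 on the log2 scale, adjusted p = 2.00e-07) turned to 0.18 (adjusted p = 0.125) without TMM factors. Elovl7 had 0.885 to 1.33 CPM in WT iWAT and was called there against each other tissue, while liver, muscle and BAT were not called in neighbouring pairs. Elovl4 had 0.204 to 0.506 CPM in WT BAT and 0 counts in all 5 WT liver libraries, where 3 counts, the limit that 0 allows, come to 0.0995 to 0.118 CPM. That limit covers counting error only.

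**Figure D1:**
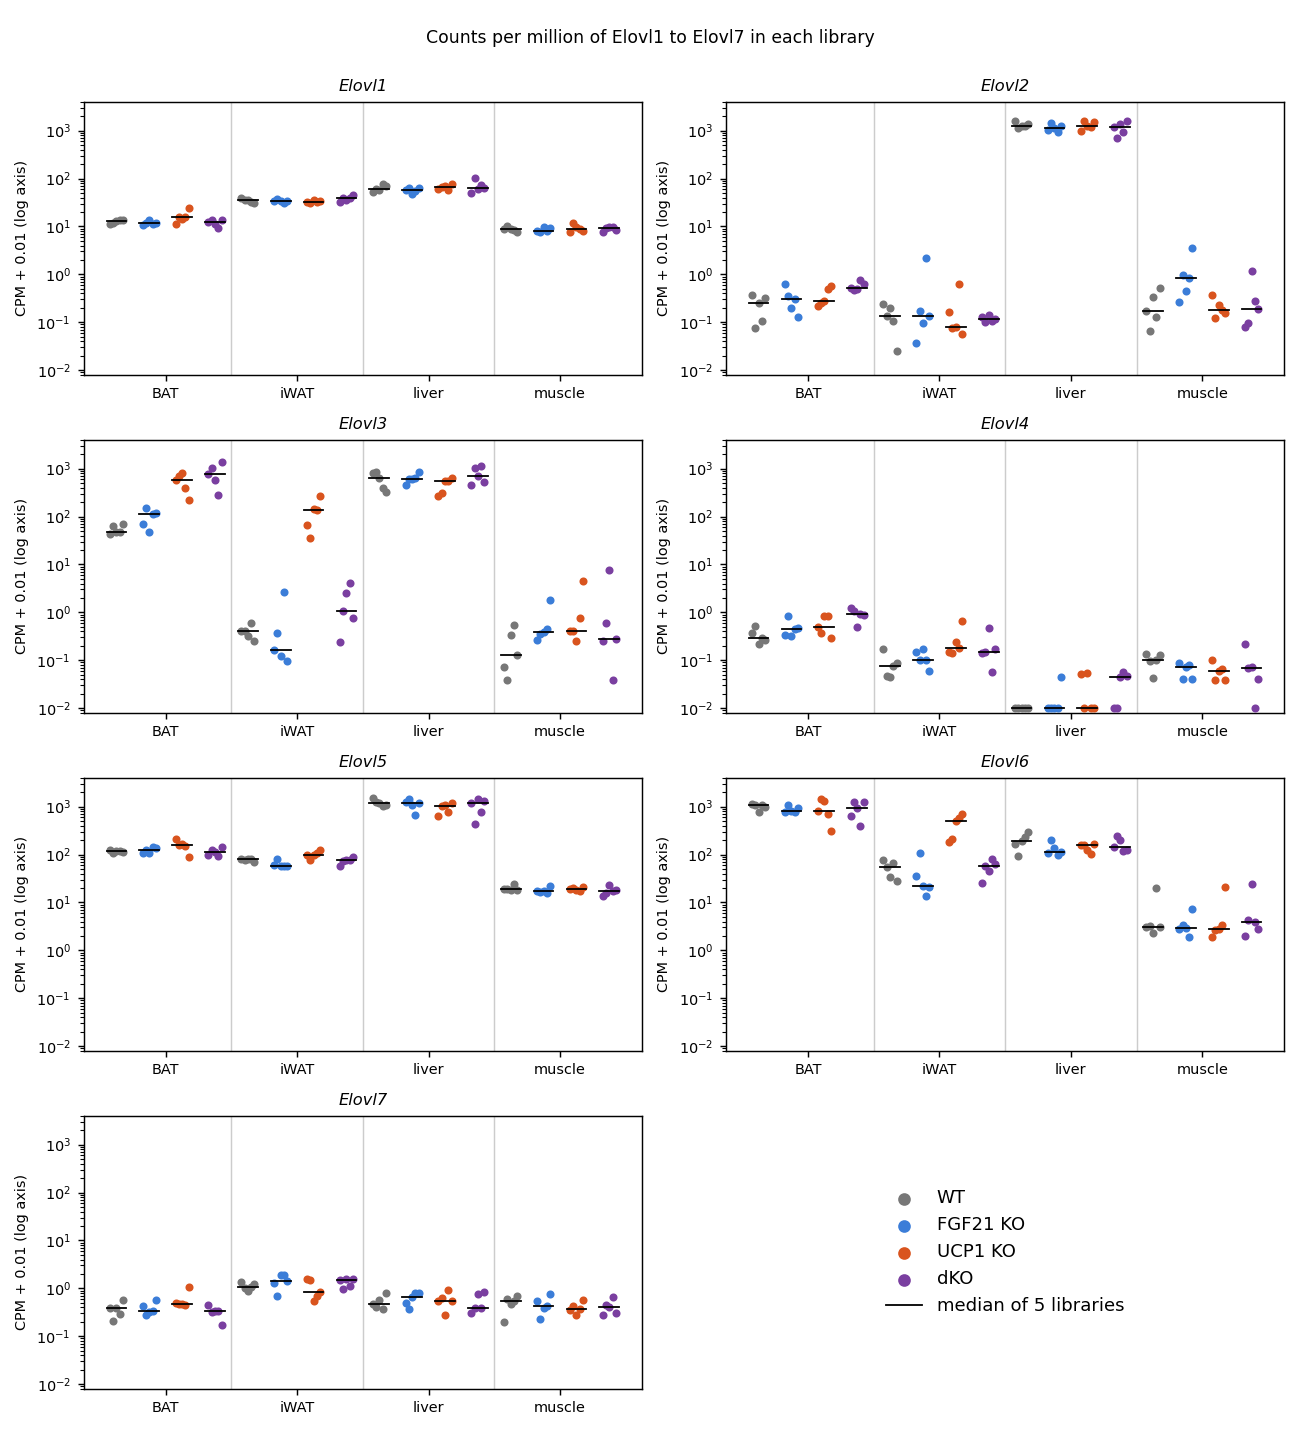
CPM plus 0.01 on a log axis for each member, 1 panel each, in the 80 libraries by tissue, coloured by genotype, with a line at the median of 5 libraries. Elovl2 and Elovl5 stand highest in liver, and in iWAT the UCP1 KO points of Elovl3 (36.2 to 272 CPM) and Elovl6 (184 to 706 CPM) stand above the other genotypes.

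Members were compared with each other only per length, as CPM per kilobase of exons. In WT BAT, Elovl6 led with 159 ± 22.35 CPM per kb (SD, n = 5), followed by Elovl5 (33.4 ± 1.70) and Elovl3 (27.6 ± 5.39), whose libraries overlapped, and by Elovl1 (4.65 ± 0.435). In WT iWAT the order was Elovl5 (22.2 ± 1.70), Elovl1 (12.7 ± 1.29) and Elovl6 (8.07 ± 3.235), the latter pair with overlap, followed by Elovl7 (0.275 ± 0.0446) and Elovl3 (0.194 ± 0.0642). In WT liver, Elovl5 (344.5 ± 58.3), Elovl2 (333 ± 45.1) and Elovl3 (309.8 ± 124) overlapped as neighbours and lay above Elovl6 (30.0 ± 11.2) and Elovl1 (23.3 ± 3.76). Muscle was led by Elovl5 (5.66 ± 0.667) and Elovl1 (3.25 ± 0.356), and by the group means its 7 members stood in the same order as in iWAT. Both fat depots thus held little Elovl2 per length, with 0.0536 CPM per kb in BAT and 0.0330 in iWAT.

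The make-up of the family in fat differed with genotype. These shares of the family's CPM per kb do not depend on the scaling of libraries and were not tested. In iWAT of WT, FGF21 KO and dKO, Elovl5 made up 42.3 to 55.65% in each library, Elovl1 25.7 to 38.4% and Elovl3 at most 4.16%. Elovl6 made up 12.15 to 23.8% in WT, 6.55 to 30.75% in FGF21 KO and 12.4 to 24.98% in dKO. In iWAT of UCP1 KO, Elovl3 made up 21.5 to 46.5% and Elovl6 27.9 to 45.4%, while Elovl5 made up 12.1 to 27.2% and Elovl1 4.22 to 13.3%. The shares of Elovl6 in UCP1 KO and FGF21 KO overlapped. The family's total there averaged 43.5 ± 5.49 CPM per kb for WT, 37.4 ± 9.06 for FGF21 KO, 45.0 ± 7.82 for dKO and 175 ± 85.0 for UCP1 KO, and the lowest UCP1 KO library (85.2) lay above the highest of the others (53.3). In BAT the share of Elovl6 was 54.3 to 74.2% in WT and FGF21 KO and 18.8 to 35.2% in UCP1 KO and dKO. Its mean level in BAT was 159 CPM per kb in WT, 136 in FGF21 KO, 143 in UCP1 KO and 141 in dKO. The family's total in BAT averaged 225, 227, 467 and 588 CPM per kb in the same order. The share of Elovl3 there was 9.22 to 27.5% in WT and FGF21 KO and 56.4 to 74.8% in UCP1 KO and dKO.

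**Figure D2:**
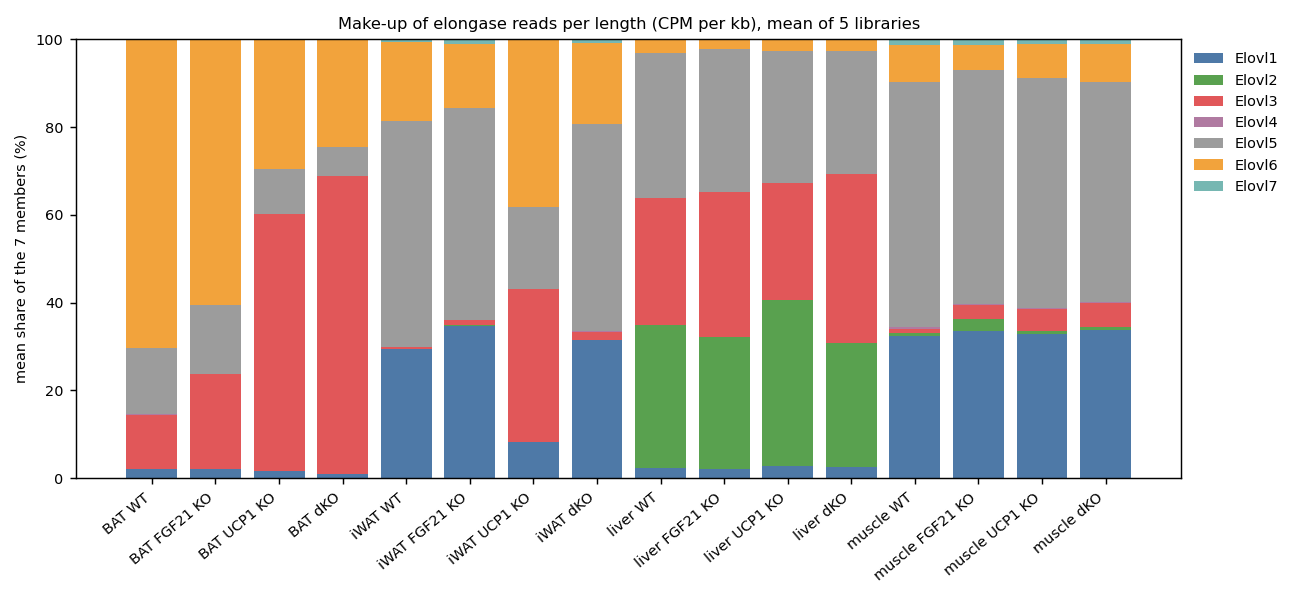
Stacked bars, from 0 to 100%, of each member's mean share of the summed CPM per kb of the 7 members in the 16 groups of 5 libraries. In BAT, Elovl3 takes 12.4% of the WT bar, 58.5% of the UCP1 KO bar and 67.9% of the dKO bar, and in iWAT it takes 34.7% for UCP1 KO beside 0.442% (WT) and 1.825% (dKO).

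In iWAT, Elovl3 and Elovl6 rose in the libraries labelled UCP1 KO, and the other 5 members did not pass the test. Elovl3 had 67.2, 36.2, 146, 135 and 272 CPM in UCP1 KO, against 0.243 to 0.579 CPM in WT. Every UCP1 KO library lay above every WT library, and the change was 8.39 ± 1.12 on the log2 scale, or 335-fold (95% interval of the log2 value 6.04 to 10.73, adjusted p = 0.000935). Elovl6 had 184, 215, 497, 588 and 706 CPM in UCP1 KO and 77.3, 54.6, 34.3, 65.6 and 27.8 CPM in WT, again without overlap. It rose by 3.06 ± 0.55 on the log2 scale, or 8.36-fold (adjusted p = 0.00657). These 2 of 7 members stand beside 0.61% of all 17380 genes tested that were called, and beside 4.045% of genes without overlap of the 2 groups.

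Elovl3 and Elovl6 were also higher in UCP1 KO than in dKO. In dKO, Elovl3 had 0.235, 1.05, 2.48, 4.03 and 0.757 CPM and Elovl6 had 26.1, 58.0, 46.2, 82.6 and 64.9 CPM. Libraries 3 and 4, with the most Elovl3 among dKO, had skin and sebaceous scores of 0.923 and -0.55, against at most -1.25 in the other iWAT libraries, and the part of this score in the values was not tested. UCP1 KO exceeded dKO by 6.26 ± 1.00 for Elovl3 (76.8-fold, adjusted p = 0.00394) and by 2.98 ± 0.55 for Elovl6 (7.87-fold, adjusted p = 0.00941), with no overlap for either gene. Here 0.466% of all tested genes were called and 2.17% did not overlap, and the 5 UCP1 KO libraries are shared with the comparison above. Once the fit held the lymph node score, Elovl1 was called too, lower in UCP1 KO (-0.26, adjusted p = 0.00898). The 0.466% belongs to the fit without that score, and the share of genes called with it is not given here. Between dKO and FGF21 KO, which both lack Fgf21, 0 members were called by edgeR and by DESeq2 (1 had an unadjusted p under 0.05), as were 0.0115% of genes. Elovl3 differed there by 1.30 ± 0.85 on the log2 scale (interval -0.48 to 3.09) and Elovl6 by 0.47 ± 0.51 (interval -0.61 to 1.55). Single libraries of either group moved these values. The dKO mean of Elovl3 was 1.71 CPM, and 1.13 CPM without dKO library 4. Without FGF21 KO library 4, which had 2.62 CPM of Elovl3 against 0.0862 to 0.364 in the other 4, the difference of Elovl3 was 3.27 ± 0.77 (adjusted p = 0.721). Without FGF21 KO library 2, which had 105 CPM of Elovl6 against 13.5 to 36.0, that of Elovl6 was 1.26 ± 0.44 (adjusted p = 0.0919).

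The interaction, the difference of UCP1 KO from WT minus that of dKO from FGF21 KO, was 7.09 ± 1.29 on the log2 scale for Elovl3 (adjusted p = 0.0907) and 2.59 ± 0.74 for Elovl6 (adjusted p = 0.255). edgeR called 0 members and 0% of genes in it, with 2 members and 1734 genes at an unadjusted p under 0.05, whereas DESeq2 called Elovl3 (7.10, adjusted p = 2.49e-06) and not Elovl6 (adjusted p = 0.0309). The tools thus differ on whether the effect on Elovl3 in iWAT depended on Fgf21. Shares of genes called in this paragraph are those of the main edgeR fit, and none is given for DESeq2. Without FGF21 KO library 4 the interaction of Elovl3 was 5.11 ± 1.01 by edgeR (adjusted p = 0.150). For FGF21 KO against WT, edgeR and DESeq2 called 0 members (1 had an unadjusted p under 0.05; 0.00575% of genes were called), and for dKO against WT also 0 (2 members; 0.0173% of genes). Over all 4 genotypes edgeR called Elovl3 and Elovl6 and 1.74% of genes. Elovl5 was called there by DESeq2 (adjusted p = 0.000292) and by edgeR without UCP1 KO library 2 (adjusted p = 0.00594) or FGF21 KO library 2 (adjusted p = 0.00536).

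The UCP1 KO libraries of iWAT differed in how far the 2 genes rose. Library 2 had the lowest Elovl3 and library 1 the lowest Elovl6, and library 5 had the highest of both. Library 2 was the UCP1 KO library with a high lymph node score (6.52), and library 1 had the highest skeletal muscle score in iWAT (9.72). The brown adipocyte score, which includes Ucp1 itself, was 5.21 to 7.78 in UCP1 KO, lowest in library 2 and highest in library 5, and at most 4.42 in the other iWAT libraries, and its part in the result was not tested. When the lymph node score entered the fit as a covariate, the changes against WT were 8.13 for Elovl3 (adjusted p = 0.000289) and 2.71 for Elovl6 (adjusted p = 0.000847). Among the libraries with a score at or under 4, a limit chosen after the scores were seen, they were 8.69 (adjusted p = 0.00123) and 3.13 (adjusted p = 0.00305).

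Except for Elovl3 against WT, these calls lay close to the threshold in the main edgeR fit. With 1 library left out at a time, Elovl3 against WT was called in all 10 fits. Elovl6 against WT was lost in 8 of 10, without any of the 5 WT libraries or without UCP1 KO 3, 4 or 5 (adjusted p up to 0.0298). Against dKO, Elovl6 was lost in 8 of 10, without any of the 5 dKO libraries or without UCP1 KO 3, 4 or 5 (adjusted p up to 0.0349), and Elovl3 in 5 of 10, without UCP1 KO 3 or dKO 1, 2, 3 or 5 (adjusted p up to 0.0177). Over these fits and the other settings the changes ranged from 2.71 to 3.26 on the log2 scale for Elovl6 against WT, from 2.74 to 3.17 for Elovl6 against dKO and from 5.815 to 6.845 for Elovl3 against dKO. Under the 8 other settings of the fit, the adjusted p of Elovl6 against WT ranged from 2.16e-07 to 0.0236. Against dKO it ranged from 8.17e-07 to 0.0476 for Elovl6 and from 7.93e-12 to 0.0476 for Elovl3. With the lymph node score in the edgeR fit, both genes had an adjusted p of 0.000689 against dKO.

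**Figure D3:**
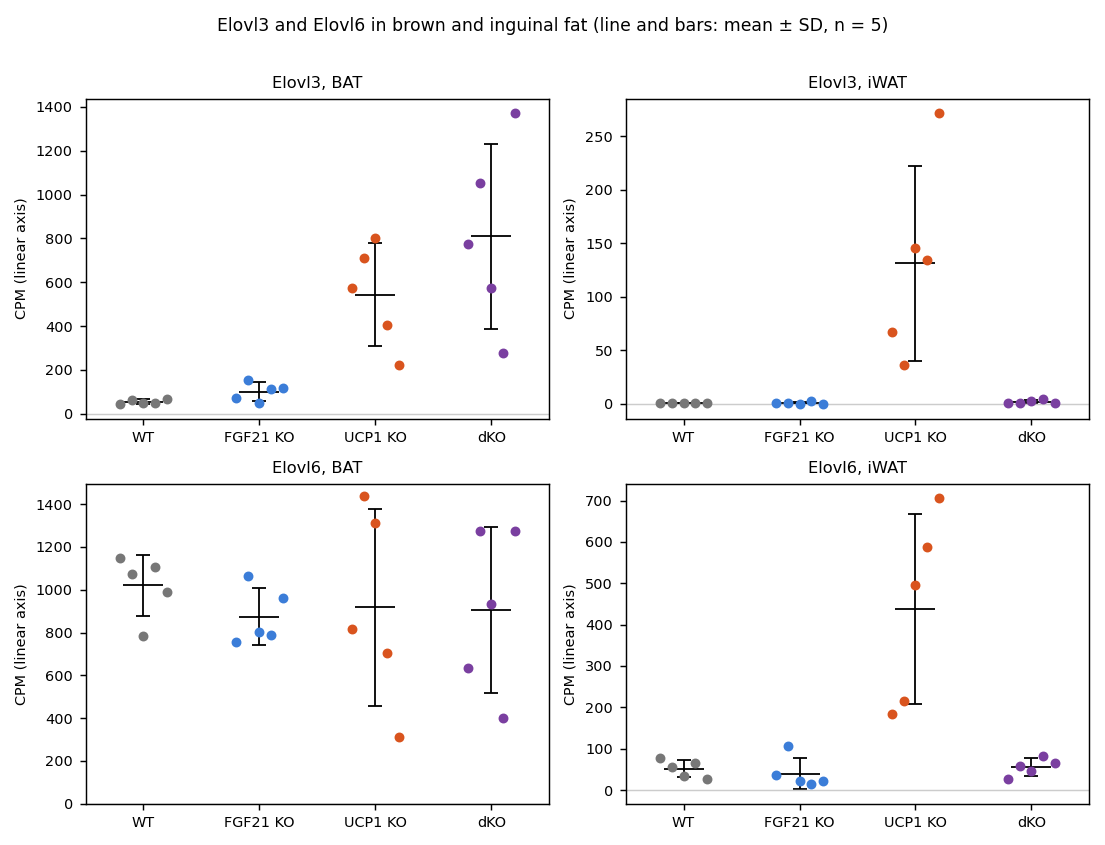
CPM of Elovl3 and Elovl6 on a linear axis in the 5 libraries of each genotype in BAT and iWAT, with the mean ± SD. In iWAT the UCP1 KO points of both genes lie above all others, whereas in BAT Elovl3 is higher in UCP1 KO and dKO and the Elovl6 points of the 4 genotypes overlap.

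In BAT, Elovl3 rose both in the libraries labelled UCP1 KO and in those labelled dKO. It had 575, 713, 802, 403 and 221 CPM in UCP1 KO, against 43.9 to 68.4 CPM in WT. In dKO it had 774, 1053, 573, 277.5 and 1372 CPM, against 69.6, 154, 46.8, 113 and 117.5 CPM in FGF21 KO. Neither group overlapped with its control, and the rises were 3.31 ± 0.41 on the log2 scale for UCP1 KO (adjusted p = 1.03e-05) and 3.01 ± 0.41 for dKO (adjusted p = 4.54e-05). Elovl3 was the 1 member called in each, beside 25.2% and 13.5% of genes called and 23.0% and 18.5% of genes without overlap. Both groups overlapped with each other, with a log2 difference of -0.58 for UCP1 KO against dKO (interval -1.37 to 0.21, adjusted p = 0.544), where edgeR and DESeq2 called 0 members (4 had an unadjusted p under 0.05) and edgeR 0.0636% of genes. Marker scores moved with these groups. The macrophage score of UCP1 KO (4.37 to 5.73) lay above that of WT (3.85 to 4.12), while dKO (4.02 to 5.03) and FGF21 KO (3.84 to 4.42) overlapped. The brown adipocyte score includes the targeted gene Ucp1, so its fall holds that of Ucp1 itself. The median Ucp1 count in BAT was 194523 in WT and 43010 in UCP1 KO, and 230371 in FGF21 KO and 61890 in dKO. This score, 9.29 to 9.92 in WT, was lower in each UCP1 KO library (8.43 to 9.265). It was also lower in each dKO library (9.07 to 9.19) than in FGF21 KO (9.42 to 9.75). The part of either score in the result was not tested.

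Elovl6, the member with the most reads per length in WT BAT, did not pass the test there. It had 815, 1439, 1314, 705 and 313 CPM in UCP1 KO, 634, 1276, 933, 401 and 1275 CPM in dKO and 786 to 1149 CPM in WT, and all groups overlapped. UCP1 KO differed from WT by -0.16 on the log2 scale (interval -0.83 to 0.52, adjusted p = 0.723). UCP1 KO library 5 had the lowest Elovl3 and Elovl6 of its group, as had dKO library 4 of its own. That UCP1 KO library also had the lowest adipocyte score (7.58, others 8.498 to 9.597) and brown adipocyte score (8.43) in BAT, whose part in its values was not tested. Over the 20 BAT libraries Pearson's r between the log2 CPM of Elovl3 and Elovl6 was 0.10, and over the 20 iWAT libraries it was 0.87, given as a description of libraries that share genotypes.

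Elovl4 was the other member called in BAT, at a low level. It had 1.25, 1.07, 0.481, 0.913 and 0.880 CPM in dKO, from 21 to 56 counts, and 0.204 to 0.506 CPM in WT, from 6 to 15 counts, so that 1 dKO library lay within the WT range. dKO exceeded WT by 1.51 ± 0.36 on the log2 scale (adjusted p = 0.00366), and Elovl3 by 3.89 ± 0.42 (adjusted p = 3.54e-06), so 2 of 7 members were called beside 21.1% of genes. Elovl2 did not overlap in this comparison either, at 0.457 to 0.740 CPM in dKO and 0.0675 to 0.352 in WT, but was not called by edgeR (1.37 ± 0.43, adjusted p = 0.0188; DESeq2 1.39, adjusted p = 0.00971), and 24.6% of genes did not overlap. The hepatocyte score did not overlap either, at 2.54 to 3.31 in dKO and 1.27 to 2.35 in WT, and its part in these values was not tested. The skeletal muscle score was 8.40 to 8.57 in 3 of the 5 dKO libraries, and with it as a covariate Elovl4 was at 1.43 (adjusted p = 0.0275). The call of Elovl4 was also lost without WT 3, 4 or 5 or dKO 1 (adjusted p up to 0.0119), while its value stayed between 1.37 and 1.73 under every setting tried.

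FGF21 KO against WT in BAT gave 0 calls by edgeR and by DESeq2 among the members, with 1 at an unadjusted p under 0.05, and 0% of genes (1345 at an unadjusted p under 0.05). Elovl3 was at 0.87 ± 0.38 there (adjusted p = 0.518). The interaction in BAT gave 0 members by both tools (1 at an unadjusted p under 0.05) and 0% of genes (845 at an unadjusted p under 0.05), with 0.30 ± 0.53 for Elovl3. Over all 4 genotypes Elovl3 was called, as were 29.7% of genes.

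The difference between UCP1 KO and WT was compared between the 2 fat tissues in a fit of their 40 libraries. It was larger in iWAT than in BAT by 5.04 ± 0.96 on the log2 scale for Elovl3 (adjusted p = 0.000447) and by 3.20 ± 0.63 for Elovl6 (adjusted p = 0.000622), and these 2 of 7 members stand beside 6.19% of genes called. When the difference of dKO from FGF21 KO was set side by side in the same way, edgeR and DESeq2 called 0 members (1 had an unadjusted p under 0.05), beside 1.93% of genes, with -1.71 ± 0.92 for Elovl3 (adjusted p = 0.229) and 0.42 ± 0.61 for Elovl6 (adjusted p = 0.686). In levels, the mean Elovl3 of iWAT was 0.703% of that of BAT in WT, 0.667% in FGF21 KO, 24.2% in UCP1 KO and 0.211% in dKO. For Elovl6 the same percentages were 5.09, 4.53, 47.75 and 6.14, and for Elovl5 they were 66.5, 50.2, 65.4 and 64.55. Without single iWAT libraries, Elovl3 came to 0.179% in FGF21 KO (library 4 left out) and 0.140% in dKO (library 4 left out), and Elovl6 to 2.65% in FGF21 KO (library 2 left out). These percentages also rest on the TMM factors. Without them, Elovl3 came to 1.16% in WT, 1.37% in FGF21 KO, 28.2% in UCP1 KO and 0.306% in dKO, Elovl6 to 8.31, 7.95, 56.5 and 8.73%, and Elovl5 to 109.7, 95.7, 78.9 and 93.5%, so that the direction for Elovl5 in WT turned.

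**Figure D4:**
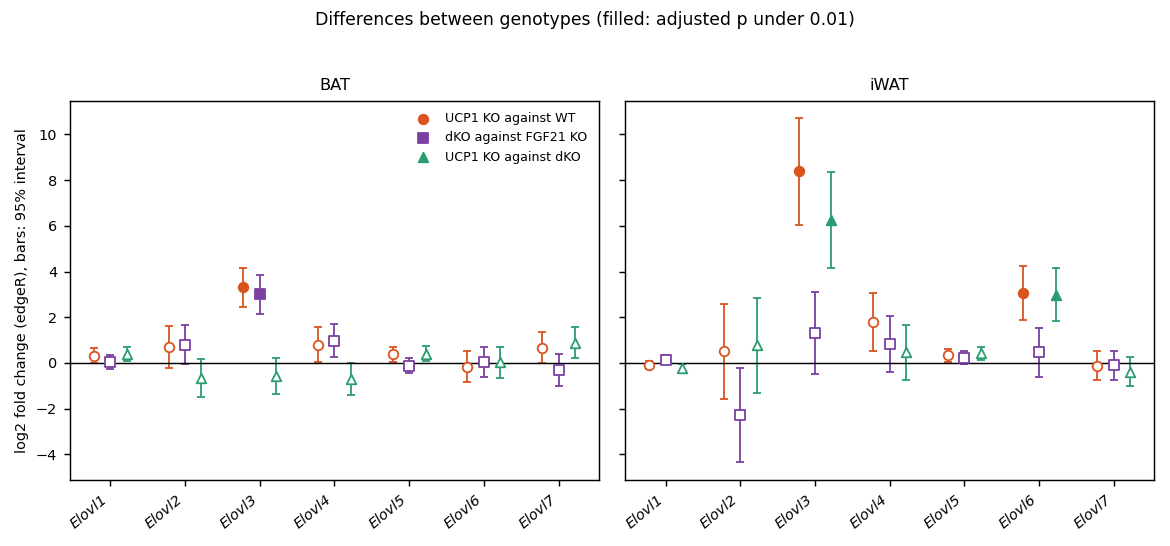
Log2 fold changes of the 7 members from edgeR with 95% intervals in BAT and iWAT for 3 comparisons of genotypes, filled where the adjusted p is under 0.01. Filled points are Elovl3 in BAT (3.31 and 3.01) and Elovl3 (8.39 and 6.26) and Elovl6 (3.06 and 2.98) in iWAT.

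The other members did not pass the test between UCP1 KO and WT in either fat. Elovl5 had 98.2, 76.1, 95.9, 105 and 126 CPM in iWAT of UCP1 KO and 68.6 to 82.5 CPM in WT, with overlap and a log2 difference of 0.34 (interval 0.06 to 0.63, adjusted p = 0.219). In BAT Elovl5 had 207, 155, 166, 147 and 90.1 CPM in UCP1 KO and 109 to 125 CPM in WT, so that 4 libraries lay above all of WT and library 5 below them. The log2 difference was 0.38 (interval 0.04 to 0.72, adjusted p = 0.0695), and without UCP1 KO library 5 Elovl5 was called (0.52, adjusted p = 0.00395). Without TMM factors every difference of UCP1 KO against WT moves by 0.29 in BAT and by -0.18 in iWAT, which is of the size of these values. Elovl1 had 30.9 to 35.0 CPM in iWAT of UCP1 KO and 30.7 to 39.9 CPM in WT (log2 difference -0.10, interval -0.28 to 0.09), and in BAT it differed by 0.32 (interval 0.01 to 0.63, adjusted p = 0.0870). Elovl4 in iWAT was at 0.132 to 0.647 CPM in UCP1 KO and 0.0341 to 0.159 CPM in WT, with a log2 difference of 1.78 ± 0.60 (adjusted p = 0.141). Elovl7 had 0.532 to 1.57 CPM in iWAT of UCP1 KO and 0.885 to 1.33 CPM in WT, and Elovl2 had a wide interval there (-1.56 to 2.59).

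In liver and muscle 0 members were called over all 4 genotypes by edgeR and by DESeq2 (0 and 1 had an unadjusted p under 0.05), beside 0.34% and 0.086% of genes. In liver the log2 differences of the 6 members tested ranged from -0.71 to 0.35 over 5 pairs of genotypes, with a lowest adjusted p of 0.579. Elovl3 in liver had 267.5, 316, 554, 551 and 650.3 CPM in UCP1 KO, overlapping with the WT range of 331 to 871, and differed by -0.37 ± 0.30 (adjusted p = 0.715). Elovl2 was at 0.01 ± 0.18 and Elovl5 at -0.35 ± 0.25 in the same comparison. In muscle the log2 differences ranged from -1.77 to 3.01, with a lowest adjusted p of 0.136, and both ends of that range belong to Elovl2 and Elovl3, which have few counts there.

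Single libraries stood out in muscle and iWAT. Elovl6 had 1.90 to 4.23 CPM in 16 muscle libraries and 7.20, 19.85, 21.0 and 24.1 CPM in the other 4, 1 of each genotype. The same 4 had brown adipocyte scores of 6.004 to 6.44, against 4.58 to 5.17 in the 16, and Elovl3 of 0.544 to 7.65 CPM, against at most 0.737 CPM. In muscle, FGF21 KO library 5 had 3.54 CPM of Elovl2, a hepatocyte score of 5.19 and 238 CPM of the liver gene Alb, against at most 1.17 CPM, 3.27 and 52.9 CPM in the other libraries. In iWAT, FGF21 KO library 4 had 2.20 CPM of Elovl2, a hepatocyte score of 5.69 and 142 CPM of Alb, against at most 0.609 CPM, 4.29 and 65.8 CPM in the others. Of the 5 hepatocyte markers, Apoa1, Ttr and Serpina1a were likewise higher in these libraries than in any other of their tissue. Cyp2e1 was not, with 70.2 CPM in the muscle library (others up to 149.5) and 494 CPM in the iWAT library (others with a median of 583). The part of RNA from other tissues in these values was not tested.

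The genes that work beside the elongases were read from 7 lists with 69 genes in the counts, of which 66 were tested in iWAT and 67 in BAT. In iWAT of UCP1 KO against WT, 2 of the 66 rose and none fell, beside 0.61% of all genes called. Acsl5, an acyl-CoA synthetase that activates long chains, had 151 ± 61.0 against 65.5 ± 4.53 CPM and rose by 1.19 ± 0.20 on the log2 scale (adjusted p = 0.00357). Ppara, a nuclear receptor for fatty acids, had 112 ± 79.3 against 10.6 ± 3.45 CPM and rose by 3.38 ± 0.56 (adjusted p = 0.00382). Both were called against dKO as well (1.20 ± 0.20 and 3.43 ± 0.57). The 9 genes of malonyl-CoA and palmitate synthesis did not pass the test, with log2 differences from 0.66 to 1.865 and a median of 1.22, beside a median of 0.51 over the elongases and of -0.03 over all genes tested. Nor did any of the 6 tested partners of the elongation cycle (median 0.26), the 8 desaturases (median 0.08), the 4 ceramide synthases (median -0.10) or the 13 peroxisomal genes (median 0.38). Chosen after their values were seen, Acly, which makes cytosolic acetyl-CoA, was at 1.86 ± 0.52 (adjusted p = 0.0658) and Hsd17b12, the ketoacyl reductase of the cycle, at 1.11 ± 0.37 (adjusted p = 0.129).

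In BAT of UCP1 KO against WT, 12 of the 67 list genes rose and 4 fell. Of all 15729 genes tested, 2169 rose and 1796 fell (25.2% called), so the lists taken as 1 lie near that share, and their count is no result about them. The desaturases put double bonds into fatty acid chains, and 5 of 8 rose (median 1.01). Scd3 had 73.8 ± 29.5 against 1.56 ± 0.971 CPM (5.54 ± 0.58 on the log2 scale, adjusted p = 1.85e-06), and Fads3 (2.00 ± 0.49) and Fads6 (1.98 ± 0.36) followed. Of 12 acyl-CoA synthetases 3 were called higher, namely Acsl4 (0.85 ± 0.18), Acsl3 (0.76 ± 0.16) and Acsl6. At most 1 read fell on Acsl6 in any WT library, beside 6 to 40 for UCP1 KO, so that it passed the low-count filter only through the groups where it was high, and nothing is read from its call. Of 13 peroxisomal genes 4 rose, led by Acox2 (3.13 ± 0.47), Acaa1b (1.51 ± 0.25) and Acot8 (0.89 ± 0.15), while 2 fell, among them Acaa1a by 0.27 ± 0.06. The ceramide synthase Cers5 fell by 0.30 ± 0.06 and the sterol receptor gene Nr1h2 fell by 0.42 ± 0.08. The 9 genes of malonyl-CoA and palmitate synthesis (median -0.30) and the 6 elongation partners (median 0.14) did not pass, beside a median of 0.66 over the elongases and of 0.01 over all genes. In liver (63 list genes tested) and muscle (64) 0 were called by edgeR for UCP1 KO against WT.

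**Figure D5:**
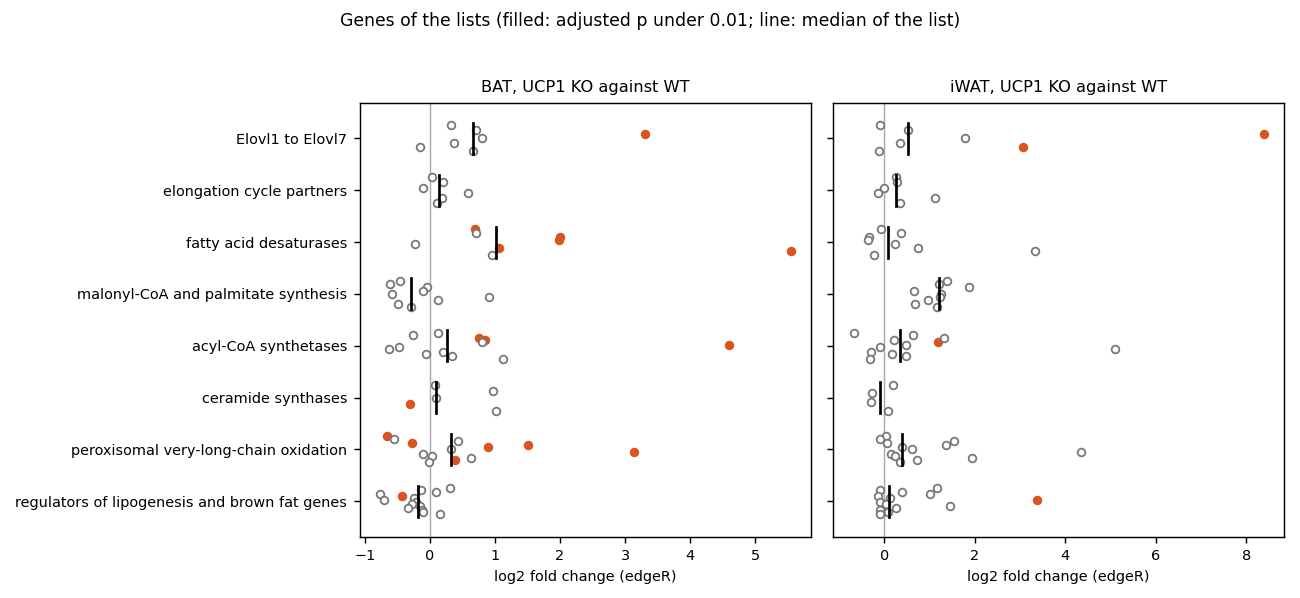
Log2 fold change of UCP1 KO against WT for each tested gene of the elongases and of the 7 lists in BAT and iWAT, filled where the adjusted p is under 0.01, with a line at each list's median. In iWAT the filled points are Elovl3, Elovl6, Acsl5 and Ppara, and the palmitate synthesis genes lie between 0.66 and 1.865 without a call.

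The genes most like a member were found by Pearson's r of log2 CPM over the 16 group means, as a description of groups that share tissues. Elovl6 was most like Acly (0.991), Pex3 (0.990) and Cox6a1 (0.9895), and Elovl3 was most like Hapln4 (0.989), Gm15401 (0.969) and Kng2 (0.968). Elovl2 was most like the liver genes Cyp2d10 and Fgg (0.9995 each), Elovl1 like Trim14 (0.994), Elovl4 like Thoc6 (0.981) and Elovl7 like Vwc2 (0.967). Over the 20 iWAT libraries Elovl3 was most like Ttc25 (0.965) and Elovl6 was most like Lace1 (0.972), with Pdhb, a subunit of pyruvate dehydrogenase, close behind (0.967). Over the 20 BAT libraries Elovl3 was most like Rexo2 (0.970), Elovl6 like Ttc25 (0.9295), Elovl2 like the liver genes Plg (0.8996) and Otc (0.888) and Elovl5 like Hsd17b12 (0.7455).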

How the data were processed

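RNA-seq libraries (TruSeq stranded) were aligned by the authors to mm10 with STAR, and reads on UCSC known genes were counted with HTSeq. The deposited values are whole-number counts per gene, with no normalization, 28691377 to 50380696 per library, and this number of reads limits the precision of low members. One row without a gene name (at most 3.42e-05% of counts) was left out. Within groups, none of 160 pairs of libraries held identical values. Each tissue was fitted over its 4 genotypes with edgeR 4.0.16 (R 4.3.3), TMM factors and the quasi-likelihood F test, two-sided, on genes with a maximum over 15, a sum over 75 and at most 10 zeros in 20 libraries, and genes were called at a Benjamini-Hochberg adjusted p under 0.01. SEs follow from the fold change and F. DESeq2 1.42.0 was an alternative, and the shares of genes called are those of the main edgeR fits. Scripts were tested on simulated data. The named list genes are up to 3 called rises and 3 falls per list. The members and lists were chosen with earlier results of these data known. Some results of list genes and of the genes most like a member are not reported here.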

Additional observations from a re-analysis of the deposited data

Results flagged for a closer look

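Of 104 groups of 5 libraries examined, 19 held a library far from the other 4, measured as its gap to the nearest one over the group's range. The critical value of 0.71 gives this in about 1 of 20 groups for independent, normally distributed values. These groups hold CPM, often from few counts, and some libraries stood apart for more than 1 member. The 19 of 104 can therefore not be set against that rate. In muscle, Elovl6 stood apart in WT library 4 (19.85 CPM), FGF21 KO library 5 (7.20 CPM), UCP1 KO library 5 (21.0 CPM) and dKO library 3 (24.1 CPM), and Elovl5 in WT library 4 (24.1 CPM, others 18.5 to 19.3). Elovl3 stood apart in FGF21 KO library 5 (1.80 CPM), UCP1 KO library 5 (4.53 CPM) and dKO library 3 (7.65 CPM) of muscle, and Elovl2 in FGF21 KO library 5 (3.54 CPM) and dKO library 3 (1.17 CPM). In iWAT, FGF21 KO library 4 had 2.20 CPM of Elovl2 and 2.62 CPM of Elovl3 (others 0.0862 to 0.364), and UCP1 KO library 4 had 0.609 CPM of Elovl2. FGF21 KO library 2 of iWAT had 105 CPM of Elovl6 (others 13.5 to 36.0) and 79.4 CPM of Elovl5 (others 56.4 to 61.5). Elovl4 stood apart in UCP1 KO library 5 (0.647 CPM) and dKO library 3 (0.467 CPM) of iWAT and in FGF21 KO library 2 of BAT (0.816 CPM), and Elovl7 in UCP1 KO library 5 of BAT (1.05 CPM, others 0.436 to 0.491).

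The difference between UCP1 KO and WT was not the same in the fat tissues by edgeR's test of the difference, by 5.04 on the log2 scale for Elovl3 (adjusted p = 0.000447) and by 3.20 for Elovl6 (adjusted p = 0.000622). All 5 UCP1 KO libraries of iWAT lay above all 5 WT libraries for both genes.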

How the results depend on the processing

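The number of members called for UCP1 KO against WT in iWAT fell from 2 to 1 when only the 2 genotypes compared were fitted, and it ranged from 1 to 2 with 1 library left out. For UCP1 KO against dKO in iWAT it fell from 2 to 1 without the low-count filter and to 0 with only the 2 genotypes, and ranged from 0 to 2 with 1 library left out. The interaction in iWAT went from 0 to 1 with DESeq2. In BAT, dKO against FGF21 KO went from 1 to 2 at an adjusted p under 0.05, and all 4 genotypes went from 1 to 2 at that threshold, with RLE factors and with DESeq2. dKO against WT went from 2 to 1 once the skeletal muscle score entered as a covariate. With 1 library left out, the BAT counts ranged from 1 to 3 for all 4 genotypes, from 1 to 2 for dKO against WT and from 1 to 2 for UCP1 KO against WT, the 2 coming without UCP1 KO library 5, where Elovl5 was called as well. The causes were not tested. Without TMM factors Elovl5 of BAT against iWAT turned to -0.13 and Elovl1 of iWAT against liver to 0.18. Of the values of members that were called, under settings other than leaving out a library, 249 kept their direction and their side of the threshold. A further 6 kept their direction and lost the call, and 2 turned direction and lost it. With 1 library left out, 115 kept both and 25 lost the call. Members not called crossed the threshold in 21 cases under other settings, among them Elovl4 in WT tissue pairs without the low-count filter, and in 10 with 1 library left out. The counts of calls stayed within 1.5 times in 209 other values, and in 333 with 1 library left out. The few reads of Elovl2, Elovl4 and Elovl7 in most tissues limit what could be detected for them. No paired analysis was possible because the labels give no replicate numbers that groups share.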
